A study of Homo sapiens with 12 samples.

Results

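The comparison described here is that of IFNα at the low dose of 20 ng/ml with no IFNα in 2 established head and neck squamous cell carcinoma (HNSCC) lines, Cal27 and HN30. It took 8 of the 12 sequenced samples. Letters B and E received 20 ng/ml IFNα for 24 h and letters A and D, the controls, received none, with replicates 1 and 2 of each letter, so that 4 treated samples were set against 4 controls. The samples were chosen by their labels and not by any measured value. The titles call B and E low dose, and the 20 ng/ml comes from the description of the design, which also gives 24 h. The letters run A, B, C and then D, E, F, each run with 1 letter per dose, and the runs were taken as the 2 lines. Which run is Cal27 and which HN30 is not given in the labels used here, so the runs are named A-C and D-F and called line sets. Letters C and F, which received 200 ng/ml, are set against 20 ng/ml near the end, and their levels are given for a few single genes.

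IFNα is a type I interferon, the cytokine by which a virus-infected cell warns itself and its neighbours. It binds the receptor pair IFNAR1 and IFNAR2, whose kinases JAK1 and TYK2 phosphorylate STAT proteins, among them STAT2. These join IRF9 to form the complex ISGF3, which binds the interferon-stimulated response element in promoters and turns on the interferon-stimulated genes, among them antiviral effectors, RNA sensors and parts of MHC class I presentation. In tumor cells the same pathway raises ligands of immune checkpoints, which is the interest of the study in this cytokine.

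Total RNA depleted of rRNA was sequenced. Total estimated counts per sample were between 11174407 and 16056734 over the 8 samples, of 60099 genes in the table, and 18202 genes passed a filter on low counts. Levels of 13022 genes correlated between samples of a line set with r between 0.948 and 0.975 and between line sets with r between 0.669 and 0.694 (the line set was a covariate of the fit). Nothing in the labels says that replicates came from separate cultures. The p-values measure the spread between these samples, and the part between replicates may be technical. The fit over both line sets has 1 dose term, so its SEs and p-values also take in any difference in response between sets. The SE of MX1 on the log2 scale was 0.289 in that fit. With a dose term for each set it was 0.0846 in A-C and 0.0911 in D-F. The 10 squamous epithelial markers were all expressed, with a summed level of 1499 to 3014 TPM (a level scaled by transcript length and by library total) in controls and 1581 to 3448 TPM at 20 ng/ml. The 8 leukocyte markers summed to at most 3.12 TPM in any control and 1.75 TPM in any treated sample, and 4 of them were at 0 in all 8 samples. The 8 fibroblast markers summed to 8.71 to 15.4 TPM in controls and 10 to 14.1 TPM at 20 ng/ml. The 5 endothelial markers summed to 0.284 to 16.8 TPM in controls and 0.100 to 21.4 TPM at 20 ng/ml, with 2 at 0 throughout. Of the 16 markers that passed the filter, none passed the test. In bulk RNA, fewer cells that express a gene and less RNA per cell cannot be told apart, and the same holds for rises. Fold changes and their tests come from the counts, while TPM also depends on the transcript models, so that a ratio of TPM values need not equal the fold.

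At 20 ng/ml, 155 genes rose and 14 fell, counting a change of 2-fold or more whose adjusted p was 0.05 or less. These were 0.852% and 0.0769% of the 18202 genes tested, whose median log2 fold change was -0.01. Counts of rises in the gene lists below stand beside this 0.852%. The lists were chosen with earlier results of these data known, so that their counts are descriptions. All 4 treated samples lay on the same side of both controls of their line set in 149 of the 155 genes that rose and in all 14 that fell. The test on these same samples favours such genes, and the share over all genes tested is not given here, so that these counts are a description. Of the rises, 31 were 8-fold or more and 74 under 4-fold. By adjusted p alone, whatever the fold, 273 genes (1.5%) were higher and 173 (0.95%) lower, so that 118 rises and 159 falls were smaller than 2-fold. Of the 155 genes that rose, 128 were protein coding, 9 noncoding, 9 pseudogenes and 9 loci that the authors' assembly had added to the annotation. Fits that left out 1 library gave between 114 and 150 rises and between 7 and 14 falls, with 7 without E2.

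The promoters of the genes that rose are shown first, because the element bound by ISGF3 is the best known feature of such genes. RefSeq promoters on GRCh38.p14, 250 bases before to 50 bases after a gene's start, were matched for 98 of the 155 genes that rose and for 11051 of the 18202 tested. The letters GAAANNGAAA, the pattern of that element, searched on both strands, were found in 46 of the 98 promoters (46.9%), in 320 of the 11051 (2.9%) and in 3.65% of all 27305 promoters. They were found in 10 of 20 promoters of genes that rose at least 8-fold and in 21 of 49 of genes that rose under 4-fold. None of the 9 matched promoters of genes that fell held them. The letters TTCNNNGAA, the pattern of sites bound by STAT dimers, were in 17 of the 98 promoters (17.3%) against 693 of the 11051 tested (6.27%), and the matches of both patterns overlapped in 4 of the 98. A match is a run of letters in this window and not a measured binding site. The 6 matches that follow are from genes of the antiviral, ubiquitin-like, chemokine and checkpoint groups, each as 30 bases in the direction of the gene with the letters of that match in capitals.
IFI44L: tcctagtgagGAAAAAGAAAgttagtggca
IFI6: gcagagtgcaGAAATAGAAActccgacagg
IFIT1: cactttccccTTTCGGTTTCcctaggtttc
ISG15: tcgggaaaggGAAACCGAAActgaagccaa
CXCL10: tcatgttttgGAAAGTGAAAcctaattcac
CD274: catgtttcacTTTCTGTTTCatttctatac

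In GRCh38.p14 these stretches lie at chr1:78620365-78620394 on the plus strand for IFI44L, chr1:27672266-27672295 on the minus strand for IFI6 and chr10:89392510-89392539 on the plus strand for IFIT1. Those of the other 3 lie at chr1:1013380-1013409 on the plus strand for ISG15, chr4:76023699-76023728 on the minus strand for CXCL10 and chr9:5450330-5450359 on the plus strand for CD274. The matches in capitals begin 73, 93, 103, 107, 221 and 202 bases upstream of the gene's start in the same order. The stretches of ISG15 and CD274 each hold another match that overlaps the capitals and begins in lower case, 113 and 208 bases upstream. In IFIT1 and CD274 the pattern reads on the opposite strand. RSAD2, XAF1, OAS1 and DDX58, which also rose, had no match of GAAANNGAAA in this window, which says only that these letters are not in it.

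Of the genes that carry the signal from the receptor to the promoter, IRF9 and STAT2, parts of ISGF3, rose. IRF9, the subunit that contacts DNA, was at 27.1, 31.1, 16.8 and 10.2 TPM in controls A1, A2, D1 and D2 and at 121, 127, 121 and 126 TPM in B1, B2, E1 and E2. The lowest treated sample was several times above the highest control, and the controls differed more than the treated samples did. IRF9 rose 5.63-fold (log2 fold change 2.49, SE 0.23, adjusted p = 0.000677). STAT2 rose 2.97-fold from 79.5 ± 5.85 to 254 ± 45.1 TPM (SD, n = 4). The receptor chains IFNAR1 and IFNAR2, the kinases JAK1 and TYK2, and STAT3 did not pass the test, with log2 fold changes between -0.42, for IFNAR2, and 0.16.

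Among 9 negative feedback genes of the pathway, USP18, a protease that removes ISG15 and also blocks the receptor, was the one that rose. It stood at 6.78, 8.60, 3.16 and 3.00 TPM in the controls and at 67.1, 75.1, 57.9 and 69.0 TPM in the treated samples, a change of 13.0-fold (log2 3.70, SE 0.23, adjusted p = 7e-05). The near-identical copy USP41 was called as well, and reads of the 2 may be divided between them. The other 8, which include the SOCS genes, lay between -0.49 and 0.29 on the log2 scale. Of 6 interferon regulatory factors tested, IRF7, which drives the later wave of interferon production, rose 7.30-fold, and the other 5 had log2 fold changes from 0.03 to 0.30. IRF7 was at 5.36 and 5.05 TPM in the controls of A-C and 12.4 and 12.6 TPM in those of D-F. With IFNα it was at 28.7 and 33.2 TPM in B and 93.7 and 103 TPM in E, the level being higher in D-F at both doses (log2 fold change 2.66 in A-C and 3.05 in D-F). Of 10 interferon genes listed, 1 passed the filter, at a log2 fold change of 0.19, and did not pass the test.

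**Figure D1:**
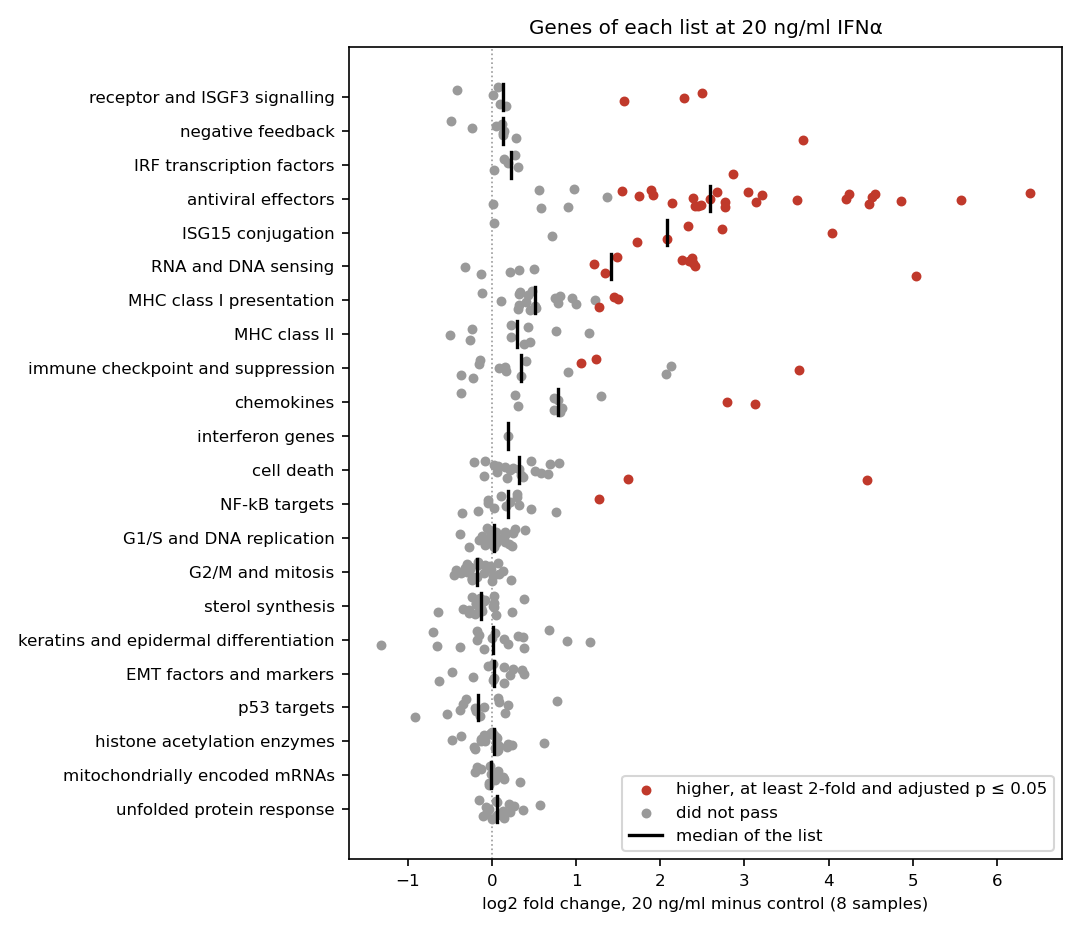
Log2 fold change at 20 ng/ml against control (horizontal axis) of each tested gene of 22 lists (rows), fitted over 8 samples with the line set as covariate. Each point is a gene, red where it rose under the thresholds given above, and black bars are list medians. The antiviral effectors (median 2.59), ISG15 conjugation (2.08) and RNA and DNA sensing (1.42) lie to the right, and the medians of the cell cycle, sterol, p53 and mitochondrial lists lie between -0.18 and 0.02.

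The antiviral effectors held more of the rises than any of the other 21 lists. This list was also the longest. Of 31 tested, 25 rose, beside 0.852% of all genes tested, and none fell. All 31 had a log2 fold change above 0, with a median of 2.59 beside -0.01 over all genes tested. Of the 10 genes with the highest fold changes, IFI44L led. It was at 4.63, 3.09, 0.157 and 0.855 TPM in the controls and at 125, 114, 143 and 165 TPM with IFNα, and rose 83.7-fold (log2 6.39, SE 0.50, adjusted p = 0.000256). The controls of D-F held 8 and 17 counts of it, so that its fold there is less certain than its level with IFNα. MX2 and MX1, the dynamin-like GTPases that trap viral nucleocapsids, lie next to each other on chromosome 21 and rose 47.5-fold and 18.5-fold. MX1 was the more abundant, at 66.2, 71.2, 29.9 and 31.1 TPM in controls and 815, 833, 891 and 1034 TPM with IFNα. MX2 was at 6.97, 10.3, 3.02 and 1.56 TPM in controls and 223, 307, 267 and 192 TPM with IFNα. No control reached the level of any treated sample for either gene.

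Of the other leading genes, OAS2 makes the 2-5A messenger that activates RNase L, and it rose 29.1-fold to 297, 282, 251 and 270.0 TPM. RSAD2 (viperin), which makes a chain-terminating nucleotide, went from 3.42, 4.71, 2.65 and 2.68 TPM to 59.6, 60.8, 76.8 and 89.0 TPM, with an SE of 0.16 on a log2 fold change of 4.49, the smallest SE of the 10. IFIT1, which binds RNA caps that lack 2′-O-methylation, went from 31.1, 21.8, 15.5 and 15.3 TPM to 318, 319.8, 478 and 519 TPM. IFI6, a mitochondrial and ER protein, rose 23.5-fold and XAF1, which antagonises the apoptosis inhibitor XIAP, rose 21.9-fold. ZBP1, a sensor of Z-form RNA that can start necroptosis, rose 32.8-fold from counts of 1 to 13 in controls to 151 to 315, so that its level stayed low, at 11.7, 19.4, 31.5 and 28.8 TPM. IFITM1, a membrane protein that hinders viral fusion, rose 22.8-fold with a SE of 0.75 on the log2 scale, the largest of the 10, and lost the call without D1 or without E2. That SE takes in a difference between line sets. With a dose term for each set, IFITM1 rose by 2.91 (SE 0.25) in A-C and 6.90 (SE 0.33) in D-F on the log2 scale. Its neighbours share sequence with it, and the interval of IFITM2 in the table covers IFITM1, so that reads may be divided between them. IFITM3 rose 5.22-fold in the fit of all 8 samples and in 7 of 8 fits without 1 library, the exception being D1, and IFITM2 did not pass (log2 1.37, SE 0.44, adjusted p = 0.183).

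**Figure D2:**
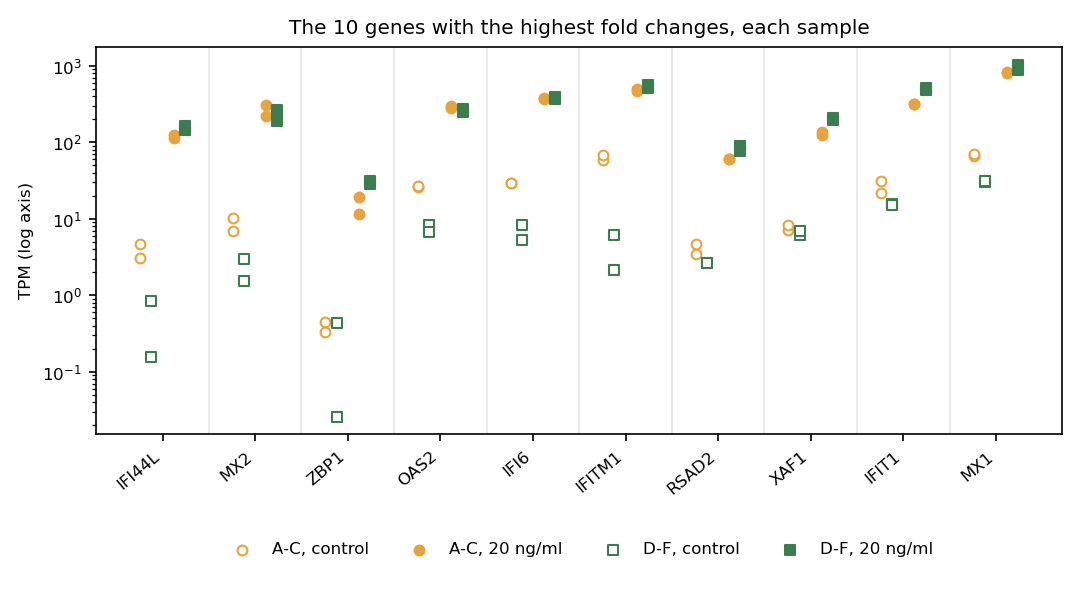
TPM on a log axis in each of the 8 samples (points) for the 10 genes with the highest fold changes, with open symbols for controls, filled symbols for 20 ng/ml, orange for A-C and green for D-F. Filled points stand above all open points for every gene, and in all but ZBP1 the open green points lie below the open orange ones.

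The remaining OAS and IFIT genes rose too. OAS1 rose 12.3-fold, OAS3 6.80-fold and OASL, which lacks the synthase activity, 8.80-fold, with OASL losing the call without D1. IFIT3 rose 9.24-fold and IFIT2 3.76-fold. EIF2AK2 (PKR), the kinase that stops translation when it binds double-stranded RNA, rose 2.92-fold from 3502, 4530, 4293 and 4547 counts in controls to 11822, 13526, 9064 and 8960 counts with IFNα. Tetherin (BST2), which holds budding virions on the cell, rose 3.72-fold, from 56.1 and 53.6 to 242 and 233 TPM in A-C and from 213 and 193 to 716 and 628 TPM in D-F. TRIM22, an E3 ligase of the antiviral TRIM family, rose 6.82-fold (adjusted p = 0.000276), and its relative TRIM5, with a log2 value of 0.90 (SE 0.24, adjusted p = 0.118), was not called. The RNA editor ADAR passed the adjusted p (0.000347) at 1.96-fold, just under the fold threshold, with 169, 173, 125 and 123 TPM in controls and 295, 291, 287 and 298 TPM with IFNα.

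ISG15 is a ubiquitin-like protein that is attached to other proteins by its own E1, E2 and E3 enzymes, and 5 of the 7 genes of this machinery rose. ISG15 was at 86.3, 129.7, 21.5 and 33.8 TPM in the controls and at 923, 924, 1130.3 and 967 TPM with IFNα. Its treated samples were alike across line sets and all stood several times above the highest control, A2 (16.5-fold, log2 4.04, SE 0.44, adjusted p = 0.00190). The E2 UBE2L6 rose 3.29-fold and the E3 HERC5 rose 5.03-fold, HERC5 being at 17.4 and 17.8 TPM in B and 72.2 and 72.3 TPM in E. The median of the 7 was a log2 fold change of 2.08.

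Of 14 sensors of RNA and DNA and their adaptors, 9 rose. The RNA helicases DDX58 (RIG-I) and IFIH1 (MDA5), which detect viral RNA in the cytosol, rose 5.21-fold and 5.34-fold. DDX58 went from 29.6, 29.1, 22.3 and 20.8 TPM to 135, 138, 126 and 140.5 TPM, with little spread in either group (SE 0.09, adjusted p = 4.74e-06). TLR3, the endosomal sensor, rose 2.54-fold at a low level, from 2.27 ± 0.199 to 6.04 ± 1.91 TPM, and was called in 4 of 8 fits without 1 library, losing the call without A2, B1, D1 or E2. MB21D1 (cGAS) passed the adjusted p (0.0348) at 1.41-fold. The adaptor of both helicases, MAVS, was lower, at 0.804 times its control level (log2 -0.32, SE 0.05, adjusted p = 0.0184), at 42.5, 40.2, 72.3 and 69.9 TPM in controls and 32.7, 35.3, 60.0 and 57.4 TPM with IFNα. Each treated sample was below both controls of its line set, and the change was under 2-fold.

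MHC class I presentation shifted by smaller steps. Of 21 genes tested, 10 were higher by adjusted p and 3 of these, HLA-B, HLA-F and the peptide transporter TAP1, by 2-fold or more, while 20 of 21 log2 fold changes were above 0 with a median of 0.51. TAP1 went from 43.0, 46.4, 39.1 and 42.3 TPM to 89.7, 93.0, 122 and 120.2 TPM (log2 1.28, SE 0.12, adjusted p = 0.000835). The immunoproteasome subunit PSMB9, whose interval overlaps that of TAP1, was at 2.00-fold, with an unrounded log2 value just under the threshold (adjusted p = 0.00640). HLA-E, the ligand of the inhibitory NK receptor NKG2A, was at 1.93-fold (adjusted p = 0.00728). HLA-B lost the call without D1, D2 or E2, and HLA-F kept it in 1 of 8 fits, without B1. The HLA genes are close copies of each other, so that the division of reads among them is uncertain. NLRC5, the transactivator of class I genes, missed the threshold (log2 1.22, SE 0.26, adjusted p = 0.0504). None of 10 class II genes passed the test.

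The study asks how IFNα bears on immune checkpoint molecules, and 3 of 15 genes of checkpoint and suppression rose. LGALS9, which encodes galectin-9, the ligand of TIM-3, was at 5.18, 7.02, 4.21 and 2.35 TPM in controls and 57.0, 47.9, 72.6 and 77.2 TPM with IFNα. The lowest treated value was several times the highest control, and LGALS9 rose 12.5-fold (log2 3.65, SE 0.30, adjusted p = 0.000360). Its near copy LGALS9DP, named after its values were seen, also rose, and reads may be divided between them. CD274, which encodes PD-L1, was at 9.69, 6.29, 9.18 and 12.7 TPM in controls and 13.4, 13.4, 23.7 and 23.2 TPM with IFNα. All 4 treated values were above the highest control, D2, but by little in B1 and B2, and the rise was 2.35-fold (log2 1.23, SE 0.19, adjusted p = 0.0126). CD274 was called in 5 of 8 fits without 1 library and lost the call without D1, D2 or E2, at an adjusted p of at most 0.0551. CEACAM1, a homophilic inhibitory receptor, was called at 2.08-fold, with 57, 88, 215 and 163 counts in controls and 136, 111, 280 and 424 with IFNα. Treated samples were above the controls of their own set, the groups overlapped across sets, and the call held in 2 of 8 fits without 1 library, those without A2 or B2.

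PDCD1LG2 (PD-L2) and IDO1, which degrades tryptophan, had fold changes as large but at low counts. PDCD1LG2 counts were 36, 53, 6 and 3 in controls and 79, 108, 33 and 64 with IFNα, and its change on the log2 scale, 2.07 (SE 0.49), had an adjusted p of 0.0743. IDO1 counts were 18, 20, 0 and 0 in controls and 47, 28, 20 and 15 with IFNα (adjusted p = 0.205). Neither passed over both sets, but within D-F both passed the adjusted p (0.00603 for PDCD1LG2 and 0.0175 for IDO1, the D controls of IDO1 being at 0), and within A-C neither did (0.211 and 0.386). The difference between sets did not pass for either (adjusted p = 0.157 and 0.147). With a separate term for each line set and dose, the average over sets passed for both. NT5E (CD73), which makes adenosine, was higher in every treated sample than in both controls of its set, at 1.87-fold (adjusted p = 0.000491), under the fold threshold. Of the histone acetylation enzymes, which the study ties to these ligands, none of 23 passed the test, and their median was 0.02. KAT2A (GCN5) was at 34.5, 39.5, 28.3 and 31.2 TPM in controls and 33.4, 36.6, 43.2 and 42.2 TPM with IFNα (log2 0.20, SE 0.16, adjusted p = 0.627). Its levels overlapped in A-C and were higher with IFNα in D-F.

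Of 11 chemokine genes tested, CXCL10 and CXCL11, ligands of CXCR3 that draw T cells and lie next to each other on chromosome 4, rose. CXCL10 counts were 13, 23, 2 and 0 in controls and 54, 68, 29 and 39 with IFNα, a fitted 6.91-fold change (SE 0.58 on the log2 scale, adjusted p = 0.0459) that no fit without 1 library called, with adjusted p up to 0.144. CXCL11 counts were 17, 25, 0 and 5 in controls and 109, 125, 30 and 56 with IFNα (adjusted p = 0.0142), and the call was lost without D2, at an adjusted p of 0.0558. In the NF-kB list 1 of 14 rose, the cytokine IL6, at 75, 76, 15 and 14 counts in controls and 110, 147, 41 and 47 with IFNα (2.42-fold, adjusted p = 0.0370), and it kept the call in 1 of 8 fits, without A1. For CXCL10, CXCL11 and IL6 the treated samples were above the controls of their own set.

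Of 21 cell death genes, XAF1, described above, and TNFSF10 rose. TNFSF10 encodes TRAIL, the death ligand. It was at 36.4, 16.5, 17.6 and 11.4 TPM in controls and 113, 99.4, 38.8 and 37.8 TPM with IFNα, the B samples standing above the E samples and every treated sample above every control (3.07-fold, adjusted p = 0.0346). The call of TNFSF10 held in 2 of 8 fits, those without A2 or D1. CASP1, the inflammasome protease, and BIRC3, an inhibitor of apoptosis, passed the adjusted p (0.0175 and 0.0144) at 1.61-fold and 1.74-fold.

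The lists of cell cycle, sterol synthesis, differentiation, EMT, p53, acetylation, the unfolded protein response and mitochondrial mRNAs held no call. None of 25 genes of G1/S and DNA replication passed 2-fold, and TYMS, the thymidylate synthase, was lower by adjusted p (0.0483) at a log2 fold change of -0.27. Of 25 G2/M genes, 20 had a log2 fold change below 0 with a median of -0.18, and none passed the test. The median was -0.08 in A-C and -0.28 in D-F. The share of all genes tested below 0 is not given here, so that the 20 are a description. Of 14 p53 targets, ZMAT3 passed the adjusted p (0.0129) at a log2 fold change of -0.91. No gene passed among 22 of sterol synthesis, 18 keratins and differentiation genes, 13 of EMT, 16 of the unfolded protein response and 13 mitochondrially encoded mRNAs, whose medians lay between -0.13 and 0.06. SNAI1, the EMT factor, was at 2.17, 2.63, 2.22 and 1.22 TPM in controls and 2.46, 2.59, 2.61 and 3.34 TPM with IFNα (adjusted p = 0.572).

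Fewer genes fell, and none of the 22 lists held one of them. The 10 lowest had a symbol, a mean of at least 50 counts and, by rule, all treated samples below both controls of their set. They included 3 histone genes of the HIST1 cluster on chromosome 6, which code for replication-dependent histones. HIST1H1B, a linker histone, was at 384, 417, 825 and 844 TPM in controls and 145, 192, 404 and 426 TPM with IFNα. The A-C and D-F levels differed, and each treated sample was below both controls of its own set (log2 -1.17, SE 0.10, adjusted p = 0.000346). HIST1H4B, for histone H4, went from 180.1, 200.4, 168 and 173 TPM to 89.7, 90.3, 81.8 and 88.0 TPM, and HIST1H3E, for histone H3, from 7.84, 7.27, 7.10 and 7.05 TPM to 3.53, 3.90, 3.07 and 3.52 TPM. In both genes no treated value reached a control (log2 -1.08 and -1.17). All 3 calls held in each of the 8 fits that left out 1 library. Histone genes are close copies, so that the division of reads among them is uncertain.

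ACO1, the cytosolic aconitase that becomes the iron regulatory protein when iron is low, was at 26.7, 25.5, 13.6 and 13.5 TPM in controls and 12.5, 13.2, 9.24 and 4.94 TPM with IFNα. The treated samples were below the controls of their own set in both, and the fall was called in 8 of 8 fits without 1 library (log2 -1.21, SE 0.10, adjusted p = 0.000283). CASTOR2, a subunit of the arginine sensor of mTORC1 signalling, went from 9.21, 6.77, 19.8 and 21.4 TPM to 2.81, 2.96, 8.05 and 6.87 TPM (log2 -1.46, SE 0.16, adjusted p = 0.00194). METTL7A was at counts of 29, 19, 411 and 366 in controls and 9, 10, 120 and 75 with IFNα, and kept its call in 4 of 8 fits, losing it without B2, D1, D2 or E2. SUMO3, a ubiquitin-like modifier, was at 196, 181, 67.9 and 179.6 TPM in controls and 69.3, 66.7, 53.4 and 49.1 TPM with IFNα. Its control D1 was near the treated samples, C1 and C2 at 200 ng/ml were at 235 and 122 TPM, and the fall was called in 1 of 8 fits, without D1. BUB1B-PAK6, a readthrough of 2 neighbouring genes whose reads cannot be separated from theirs, was at 320, 498, 12 and 57 counts in controls and 55, 98, 5 and 5 with IFNα and was called in 2 of 8 fits, without D1 or D2. The other 2 of the 10 were in the noncoding class and are given next.

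**Figure D3:**
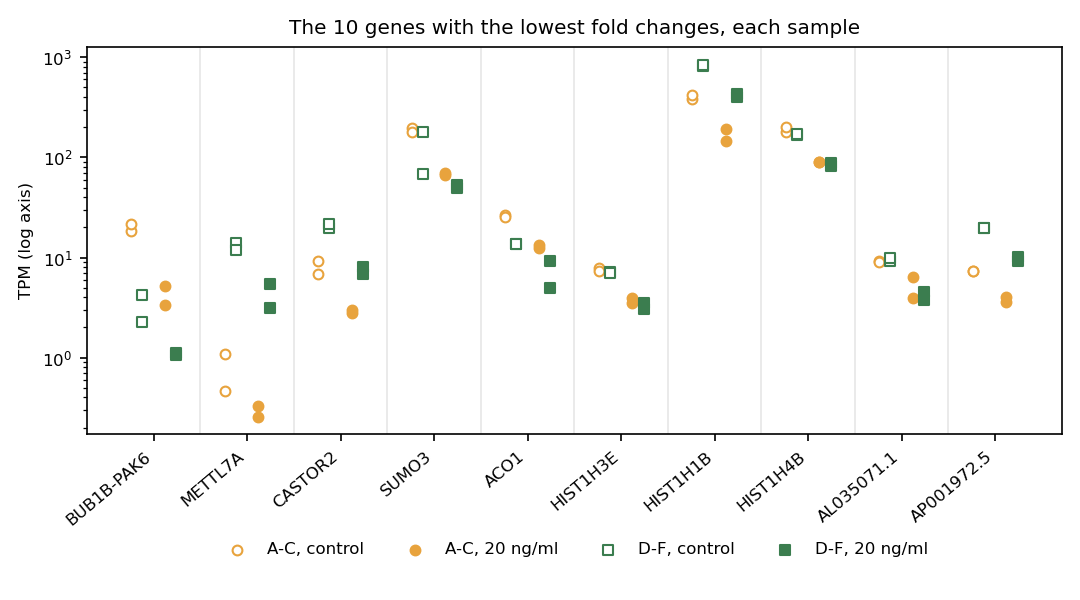
TPM on a log axis in each of the 8 samples (points) for the 10 genes with the lowest fold changes, with open symbols for controls, filled symbols for 20 ng/ml, orange for A-C and green for D-F. Filled points lie below the open points of the same color for every gene, as the rule that named these genes required. The open green SUMO3 points at 67.9 and 179.6 TPM show the spread of its D controls.

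Of 2550 noncoding genes tested, 9 rose (0.353%) and 3 fell (0.118%), and 5 of these 12 had a mean of at least 50 counts. BISPR, an intergenic RNA next to BST2 (chr19:17405694-17418904, GRCh38), was at 7.89, 9.21, 5.29 and 8.15 TPM in controls and 24.4, 20.1, 19.0 and 19.5 TPM with IFNα. Every treated value was above every control, and the 2.23-fold rise was called in 4 of 8 fits without 1 library, lost without A1, A2, B1 or E2. AC009948.1, an antisense RNA on chromosome 2 (chr2:178413939-178440243), rose 2.73-fold from 8.95 ± 2.79 to 25.6 ± 5.30 TPM (SD, n = 4). AC124319.4, within the interval of a gene that also rose, RNF213, on chromosome 17, rose 2.21-fold to 5.93, 6.85, 6.84 and 6.75 TPM. Libraries kept the strand, but whether counting used it is not given in the sources used here, so that an RNA inside or opposite another gene may hold some of its reads. AL035071.1, an intergenic RNA on chromosome 20, fell from 9.23, 9.05, 9.30 and 9.97 TPM to 6.44, 3.93, 4.53 and 3.72 TPM and was called in 1 of 8 fits, without B1. AP001972.5 on chromosome 11 fell from 7.39, 7.30, 19.5 and 19.6 TPM to 4.02, 3.59, 9.18 and 10.1 TPM, and without D2 or E1 its fall was just under 2-fold.

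Genes that rose lay close to each other in the genome. Of the 155, 73 (47.1%) had another gene that rose within 100000 bases, against 513 of all 18202 genes tested (2.82%). The 73 formed 30 groups, the largest being 5 pseudogenes and loci on chromosome 2. IFIT2, IFIT3, IFIT1 and IFIT5 formed a group of 4 on chromosome 10 (chr10:89283694-89421001), and OAS1, OAS3 and OAS2 a group of 3 on chromosome 12 (chr12:112906777-113011723). MX2 and MX1 (chr21:41361943-41459214), CMPK2 and RSAD2 (chr2:6840570-6898239), and XAF1 with FBXO39 (chr17:6755447-6797101) were pairs. CMPK2 and FBXO39 were named for their position after their values were seen. Many such groups are families of related sequence, and overlapping or copied genes can also share reads.

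The response was then compared between line sets, as the difference of the log2 fold changes. Of 18202 genes, 40 (0.22%) differed under the same thresholds, 26 with a larger value in D-F and 14 with a larger value in A-C. Among the 155 genes that rose, 14 differed and all 14 rose more in D-F, and 119 of the 155 had the larger log2 fold change in D-F, with medians of 1.86 in A-C and 2.18 in D-F. The share of all genes tested with the larger value in D-F is not given here, so that the 119 are a description. None of the 14 genes that fell differed. The number of genes called rested on single libraries, being 0 without B1, 13 without A1, 20 without A2, 24 without B2 and 26 without E2, and 36, 33 and 38 without D1, D2 and E1. At an unadjusted p of at most 0.05 it was 748, and DESeq2 called 156. The 23 differences named here and in the closing section had the same direction in each of these fits.

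LAMP3, a lysosomal protein of mature dendritic cells and interferon-treated cells, was at 15.2 and 15.5 TPM in the A controls and 1.03 and 1.46 TPM in the D controls, and at 87.0 and 74.0 TPM in B and 81.4 and 67.3 TPM in E. The levels with IFNα were alike and the controls were not (log2 fold change 2.28 in A-C and 5.71 in D-F, adjusted p of the difference = 0.00799). Over all 8 samples LAMP3 was called in 4 of 8 fits without 1 library, losing the call without D1, D2, E1 or E2. Among the 14, IFITM1 had the largest difference, 4.0 (SE 0.39), with 58.5 and 67.9 TPM in A and 6.15 and 2.13 TPM in D but 465 and 492 TPM in B and 558 and 511 TPM in E. SLC15A3, a lysosomal peptide and histidine transporter, differed by 2.93 (SE 0.25), from 14 and 17.5 TPM in A and 2.50 and 2.34 TPM in D to 37.2 and 39.3 TPM in B and 52.1 and 41.4 TPM in E, though no fit without 1 library called its rise over both sets. IFI44L and OASL completed the 5 largest, with differences of 2.89 (SE 0.29) and 2.51 (SE 0.21).

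The same samples chose the 14 genes, so that their levels describe the difference and do not test it. The D controls were below the A controls in 13 of them, with a median log2 ratio of D to A of -1.59 on the log2(TPM + 1) scale, while at 20 ng/ml the median log2 ratio of E to B was 0.22 and 12 of the 14 had a smaller gap between sets than in controls. For MX1 the levels were 66.2 and 71.2 TPM in A, 29.9 and 31.1 TPM in D, 815 and 833 TPM in B and 891 and 1034 TPM in E. For OAS2 they were 26.2 and 27.1 (A), 8.21 and 6.69 (D), 297 and 282 (B) and 251 and 270.0 TPM (E), and for IFIT3 82.9 and 87.3 (A), 22.9 and 23.3 (D), 421 and 412 (B) and 414 and 449 TPM (E). The exceptions were HLA-B, at 346 and 385 TPM in A and 354 and 332 TPM in D but 609 and 665 TPM in B and 1399 and 1463 TPM in E, and TRANK1, a large protein of unclear role that was named after its values were seen, at 17.5 and 15.1 TPM in B and 43.2 and 45.6 TPM in E. Over all 155 genes that rose, the controls differed between sets by a median log2 ratio of D to A of -0.22 and the treated samples by 0.36. Of the 155, 72 had a smaller gap between sets at 20 ng/ml than in controls, so that the narrowing in the 14 does not describe the genes that rose as a whole.

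**Figure D4:**
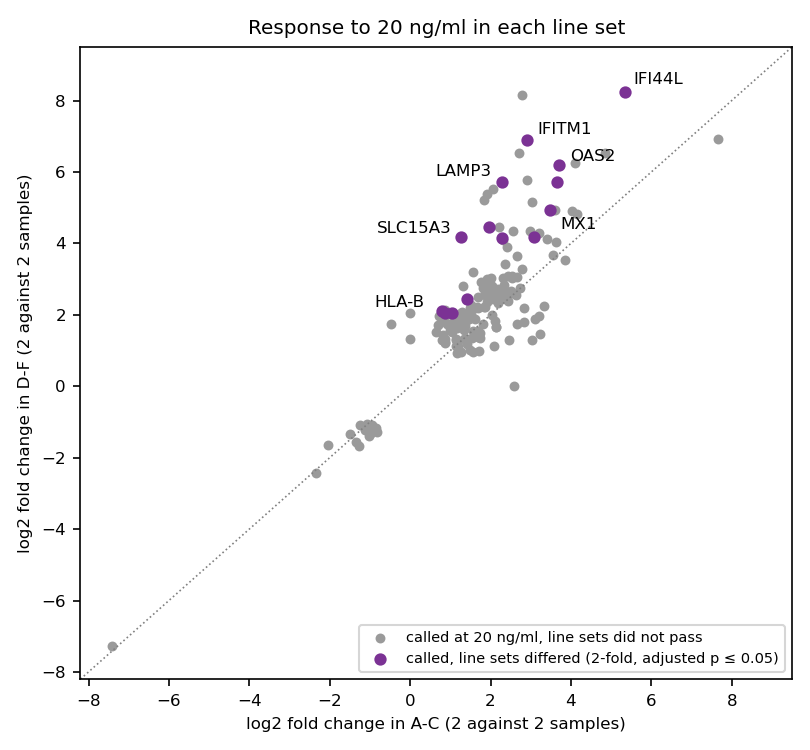
Log2 fold change at 20 ng/ml in D-F (vertical axis) against that in A-C (horizontal axis), 2 treated against 2 control samples in each, for the 169 genes that rose or fell. Purple points are the 14 genes whose response differed between sets, all above the dotted line of equal change, and gray points are the other genes.

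**Figure D5:**
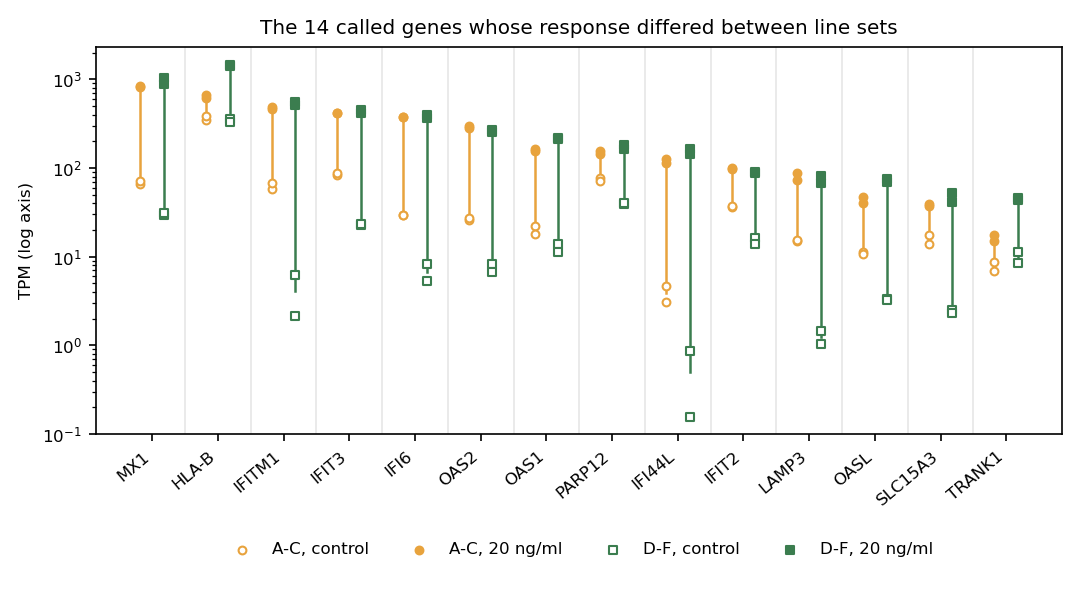
TPM on a log axis in each sample for the 14 genes that rose and whose response differed between line sets, with open symbols for controls, filled symbols for 20 ng/ml, orange for A-C, green for D-F, and lines joining the means. The means of the filled points of the sets are less than 2-fold apart for 12 of the genes, HLA-B and TRANK1 being higher in D-F, and the open green points lie lowest in all but these 2 genes.

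The other 26 genes whose response differed were not called over both sets. Among list members, the keratin KRT6B was at 6.54 and 6.98 TPM in D and 30.1 and 35.0 TPM in E but at 13.9 and 12.3 TPM in A and 15.6 and 13.6 TPM in B (difference 2.04, SE 0.22, adjusted p = 0.0162). KRT6A, the neutrophil chemokine CXCL8, the NF-kB inhibitor TNFAIP3 and NLRC5 also had the larger change in D-F, by 1.03, 1.65, 1.42 and 1.42 on the log2 scale. CENPE, a kinesin of mitotic chromosomes, went the other way, with 1035 and 1043 counts in A and 1279 and 1624 in B but 3124 and 2922 in D and 1377 and 1559 in E (difference -1.26, SE 0.16, adjusted p = 0.0393), a call that no fit without 1 library gave. CXCL8 was at 26.2 and 23.1 TPM in D and 71.2 and 84.9 TPM in E, and at 171 and 192 TPM in A and 173 and 193 TPM in B, the level being higher in A-C at both doses. Another 3 were named after their values were seen, because their values were lower with IFNα in a single set. RCAN3, a calcineurin regulator, was at 585 and 788 counts in D and 70 and 74 in E. C1GALT1C1, the chaperone of the core 1 O-glycan synthase, was at 283 and 312 counts in D and 54 and 58 in E. GLO1, the glyoxalase, was at 2143 and 2253 counts in A and 689 and 806 in B. At 200 ng/ml, RCAN3 in F was at 16.6 and 14.3 TPM beside 11.2 and 24.1 TPM in D and C1GALT1C1 in F at 25.5 and 24.8 TPM beside 20.2 and 21.2 TPM in D. GLO1 in C was at 120.2 and 118 TPM beside 137 and 113 TPM in A, so that for all 3 the samples at the higher dose stood nearer to the controls than those at the lower dose did.

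The 20 ng/ml samples were last set against the samples at 200 ng/ml, letters C and F, to see how much of the response a 10-fold higher dose adds. Of 17735 genes tested, 2 (0.0113%) differed under the same thresholds and 9 (0.0507%) by adjusted p alone. The 2 were CXCL10, which was higher at 200 ng/ml, and TMEM200B, a membrane protein named after its values were seen, which was lower. TMEM200B was at 8.11, 7.25, 8.45 and 7.10 TPM at 20 ng/ml and 0.243, 0.0974, 0.849 and 0.258 TPM at 200 ng/ml, but control A1 was at 13.4 TPM and the other controls were between 0.156 and 0.262 TPM. CXCL10 was at 5.92, 6.38, 3.76 and 4.58 TPM in B1, B2, E1 and E2 and at 19.1, 19.4, 13.8 and 12.6 TPM in C1, C2, F1 and F2. The groups did not overlap, and the log2 difference was 1.63 (SE 0.15, adjusted p = 0.0146). Of the 155 genes that rose at 20 ng/ml, 6 were higher at 200 ng/ml by adjusted p, namely CXCL10, RSAD2, IFIT1, IFIT2, IFIT3 and LAMP3. RSAD2 was at 107, 103, 148 and 136 TPM at 200 ng/ml (log2 difference 0.80, SE 0.07), and the other 4 differed by 0.70 (IFIT2), 0.60 (IFIT1), 0.52 (LAMP3) and 0.50 (IFIT3).

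Over the 155 genes, 138 had a higher value at 200 than at 20 ng/ml and the median log2 difference was 0.29, beside -0.006 over all genes tested. The 20 ng/ml samples enter both comparisons, so that a chance high value in them would lower the second difference while it raised the first. For most single genes the difference between doses did not pass the test. IRF9 differed by 0.17 (SE 0.10, adjusted p = 0.779) and MX1 by 0.35 (SE 0.07, adjusted p = 0.282). CD274 was at 13.4, 13.4, 23.7 and 23.2 TPM at 20 ng/ml and 19.9, 25.0, 32.6 and 35.2 TPM at 200 ng/ml, higher in each C and F sample than in the B and E samples of its set, with an adjusted p of 0.328. LGALS9 differed by 0.46 (SE 0.08, adjusted p = 0.218) and ISG15 by 0.09 (SE 0.14, adjusted p = 0.912). A p that misses the threshold does not show that the doses act alike. The 2 calls rested on single libraries as well, since leaving out 1 of the 8 gave between 0 and 6 calls, with 0 without B1 or C2, 89 at an unadjusted p of at most 0.05 and 21 by DESeq2 on all 8. Of the 14 genes that fell, 13 were tested between doses and none differed by adjusted p, with a median log2 difference of 0.01.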

How the data were processed

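Strand-specific libraries of rRNA-depleted RNA were made from the 2 lines and sequenced by the authors. The submitters' processing notes name Trimmomatic 0.36, HISAT2 2.1.0 and StringTie 1.3.3b and the build GRCh38.p10. The deposited gene table holds estimated counts per gene, which the authors derived from the StringTie assembly and which are whole numbers, beside TPM and FPKM values that the authors normalized for length and depth. Whether counting used the strand is not given in the sources used here. The transcript table and the FPKM columns were used for no result.

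Samples were grouped by the letters of their titles. Counts of the 8 samples were tested with the quasi-likelihood test of edgeR 4.0.16 in R 4.3.3, with TMM scaling, filterByExpr as the filter on low counts, dose and line set as terms, and Benjamini-Hochberg adjustment over all 18202 genes. A gene was called at an adjusted p of at most 0.05 and a change of at least 2-fold. The line set difference was the interaction of dose and line set, and the 200 ng/ml samples were tested against the 20 ng/ml samples in the same way. DESeq2 1.42.0, other scaling, other filters, other terms and leaving out each library were alternatives. Total counts per sample of 11174407 to 16056734 set the precision, and the common biological coefficient of variation was 0.189. Counts of replicates differed by more than sampling noise. Scripts were tested on simulated data. Plots were drawn with matplotlib 3.10.9 and tables were made with numpy 2.4.6 and pandas 2.3.3 under Python 3.11.15.

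Named were the 10 called genes with the highest and the 10 with the lowest change among those with a symbol, a mean of at least 50 counts and all treated samples on 1 side of both controls of their set. Also named were members of the lists, the 5 called genes with the largest line set difference, and up to 5 noncoding genes in each direction. The comparison, the members and the lists were chosen with earlier results of these data known. Gene classes came from GENCODE release 29, where 57836 of 60099 genes were found, 56044 at the same position, and 1925 genes were assembled loci. Promoters came from RefSeq on GRCh38.p14 by symbol, which matched 98 of 155 genes that rose and 9 of 14 that fell. Some genes that the rule names are not reported here.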

Additional observations from a re-analysis of the deposited data

Results flagged for a closer look

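The response of 23 of 91 named genes differed between line sets by the interaction test, beside 40 of all 18202 genes tested (0.22%). Several of the 23 were named for that difference, so that the share among named genes is a description. The log2 fold change in D-F minus that in A-C was 4.0 for IFITM1, 3.44 for LAMP3, 2.93 for SLC15A3, 2.89 for IFI44L, 2.51 for OASL, 2.49 for OAS2, 2.07 for IFI6 and 2.04 for KRT6B. It was 1.88 for IFIT3, 1.65 for CXCL8, 1.45 for MX1, 1.42 for TNFAIP3, 1.42 for NLRC5, 1.36 for GLO1 and 1.32 for HLA-B. It was 1.17 for PARP12, an ADP-ribosyltransferase, 1.10 for OAS1, 1.03 for KRT6A, 1.03 for IFIT2 and 1.01 for TRANK1. The 3 values below 0 were -3.36 for RCAN3, -2.44 for C1GALT1C1 and -1.26 for CENPE. None of these kept its call with the replicate number as a block.

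A single sample stood apart in 7 of 182 groups of 4 samples, by the ratio of its gap to the nearest sample over the whole range (Dixon's test at the 95% level). These were 3.85% of the groups. Chance gives such a ratio in about 1 of 20 groups of 4 like samples, but each group here holds 2 samples of each line set, whose levels differ, so that this rate need not hold. Among controls, the ratio was 0.873 for SUMO3, where D1 was at 67.9 TPM and the others at 179.6 to 196, and 0.992 for TMEM200B, where A1 was at 13.4 TPM and the others at 0.156 to 0.262. At 20 ng/ml the ratio was 0.953 for MB21D1, with E1 at 32.6 TPM and the others at 47.8 to 48.6, and 0.928 for TPT1, with B2 at 283 TPM and the others at 198 to 205. The others at 20 ng/ml were 0.888 for AC124319.4 (B1 at 5.93 TPM), 0.849 for ZMAT3 (E2 at 12.6 TPM, the others at 6.42 to 7.36) and 0.833 for SNAI1 (E2 at 3.34 TPM).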

How the results depend on the processing

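At 20 ng/ml against control, 155 genes rose and 14 fell. The number of rises was 47 with no line set term, 275 at an unadjusted p of at most 0.05 and 273 with no fold threshold, and stayed within 1.5 times 155 with the other scaling, filters, tool and terms and without any 1 library. The number of falls was 38 with 12 samples in the fit, 47 with 4 groups of line set by dose, 34 by DESeq2, 2 with no line set term, 96 at an unadjusted p and 173 with no fold threshold, and lay between 7 (without E2) and 14 without 1 library. The line set difference gave 40 genes, 156 by DESeq2, 748 at an unadjusted p and between 0 and 38 without 1 library. The 2 calls of 200 against 20 ng/ml became 9 with 12 samples, 21 by DESeq2, 6 with no filter, 89 at an unadjusted p and 0 to 6 without 1 library. The causes were not tested. No named gene changed direction under any alternative run except CENPE, which was not called and whose log2 fold change of -0.10 over both sets lay between -0.302 and 0.0938 without 1 library, being above 0 without D1, E1 or E2. Of 61 named genes called, 21 kept the call under every alternative that gave a value, and 40 lost it with no line set term.

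The labels number the replicates of each letter 1 and 2. Deviations of samples with the same number correlated by between 0.005 and 0.031 over 13022 genes, which is little shared deviation. Whether samples with the same number shared a batch or a culture is not in the labels, and these correlations cannot show it. With the replicate number as a block, 107 genes rose, 9 fell, 0 differed between line sets and 0 differed between doses, and 19 of the named genes lost their call. With 4 samples per dose and SEs of the size given, changes well under 2-fold in genes of low counts were not detectable at this depth.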

Other observations

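The groups in this section were put together after the values were seen, and their values are descriptions. Histone genes moved in both directions. Of 51 genes of the HIST1 cluster on chromosome 6 that were tested, 3 were called lower, 12 were lower and 1 higher by adjusted p, and 40 had a log2 fold change below 0, with a median of -0.24. Over all genes tested, 0.0769% were called lower and 0.95% were lower by adjusted p. Of 11 genes of the HIST2 cluster tested, none was called, 2 were higher by adjusted p and 5 had a log2 fold change below 0, with a median of 0.09. The 2 genes of the HIST3 cluster on chromosome 1 rose. HIST3H2A was at 27.1, 26.1, 17.9 and 15.8 TPM in controls and 60.3, 61.6, 59.3 and 67.3 TPM with IFNα (log2 1.51, SE 0.15, adjusted p = 0.000989), and HIST3H2BB rose by 1.44 on the log2 scale. H1F0, the linker histone of cells that leave the cycle, was at 40.6, 44.3, 358 and 291 TPM in controls and 151, 133, 965 and 931 TPM with IFNα (log2 1.61, SE 0.09, adjusted p = 3.91e-05). All 3 of these rises were called in each fit without 1 library.

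Cytosolic ribosomal protein genes were taken by symbol, which included paralogs such as RPL7L1 and RPS27L. Of 84 tested, 83 had a log2 fold change below 0, with a median of -0.28 beside -0.01 over all genes. None was called and 24 were lower by adjusted p, beside 0.95% of all genes tested. RPS6 was at 1402, 1427, 1283 and 1254 TPM in controls and 1028, 1066, 864 and 893 TPM with IFNα (log2 -0.50, SE 0.06, adjusted p = 0.00452). The elongation factor EEF1A1 and TPT1, whose mRNAs share the translational control of ribosomal protein mRNAs, had log2 fold changes of -0.46 and -0.51. The median of the 84 stayed between -0.31 and -0.26 under the alternatives, while the count by adjusted p was 40 by DESeq2, 0 with no line set term, 1 with the replicate block and 2 (without E2) to 16 (without A1) without 1 library.

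Of 6 guanylate-binding protein genes, interferon-induced GTPases, 4 were higher by adjusted p. Of these 3 were called, namely GBP5 (7.76-fold), GBP4 (4.30-fold) and GBP1 (3.20-fold). Over all genes tested, 0.852% were called higher and 1.5% were higher by adjusted p. Of 12 PARP genes, 6 were higher by adjusted p. Of these 4 were called, PARP14, PARP9, PARP12 and PARP10, at 4.91-fold, 4.79-fold, 2.75-fold and 2.72-fold. REC8, a meiotic cohesin subunit whose gene lies next to IRF9, rose from 7.50, 5.44, 4.39 and 2.09 TPM to 24.5, 20.3, 18.9 and 17.0 TPM. TMEM27, a membrane protein, rose 3.89-fold (adjusted p = 0.00123) and was called in each fit without 1 library.

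Some loci rose in a line set and were near 0 in the other. Of the 5 neighbouring loci on chromosome 2 (chr2:94763032-94947341), ANKRD20A8P, a pseudogene, had 587 and 899 counts in D and 1363 and 2388 in E, but 4 and 7 in A and 17 and 30 in B. On chromosome 5 (chr5:85523075-85647845) 3 assembled loci with no annotation did the reverse. The most abundant, MSTRG.56796, had 615 and 696 counts in A and 5535 and 6059 in B, but 13 and 8 in D and 27 and 20 in E.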
